A study of Oryzias latipes with 6 samples.

Results

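The genes described here encode heat shock proteins, their cochaperones, the chaperonin TRiC, prefoldin and the heat shock factors of Japanese medaka (Oryzias latipes). They were chosen by symbol, as every gene whose name begins with hsp, dnaj, tcp1, stip1, ahsa1, cryab, ptges3, cdc37, st13 or pfdn, or with cct, hsf or bag and a digit. Named ER and mitochondrial chaperones (hspa5, hsp90b1, hspd1, hspe1, dnajb9, dnajb11 and dnajc3), the muscle-linked hsp90aa1.1 and the proteoglycan gene hspg2 were left out. There were 99 such genes among the 20459 in the table. The pattern is one of names. It also took in 24 genes, mostly J proteins, listed here as mitochondrial, ER or non-chaperone (for example hspa13, dnajc19 and tcp11l2). hspb11 was placed among them by name, and what it encodes in medaka was not checked.

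The libraries came from axial tissue, meaning vertebrae with the muscle, fat and dermis around them, of the orange-red Hd-dR strain at 20 days post fertilization. The TCDD group (3 libraries) had been held as embryos for 1 h in 0.3 nM TCDD, a dioxin and strong ligand of the aryl hydrocarbon receptor (AHR), from about 4 hours post fertilization. The DMSO group (3 libraries) had received 0.1% DMSO, the solvent, for the same time and was reared alike. The labels do not say how much solvent the TCDD bath held. Each library was a pool of 15 to 25 larvae of mixed tissue, so fewer cells of a type and less RNA per cell cannot be told apart.

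Chaperones hold unfolded protein and help it fold. HSP70 binds short exposed stretches with the help of J proteins (HSP40), and nucleotide exchange factors such as the BAG and HSP110 proteins release the client. HSP90 takes late-folding clients, among them kinases and nuclear receptors, and the ligand-free AHR itself is held in the cytosol by HSP90 with p23. TRiC is a double ring of 8 related subunits that folds actin and tubulin, which prefoldin delivers to it, and small HSPs keep unfolded protein soluble. In muscle these systems serve the sarcomere, whose myosin and actin need help to fold. Heat shock factor 1 is the main switch of the inducible genes.

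The authors' deposited table gives 1 FPKM value (fragments scaled to gene length and library size) per gene and group, with a q-value from the authors' own test. It has no value per library, so no SD, interval or sequencing depth can be stated. How the 3 libraries entered that test is not stated, and nothing says that the pools came from separate clutches, so its q-values may reflect technical spread. Of the members, 38 were tested (38.4%, against 16.1% of all genes) and 61 were not. A q of at most 0.05 is called a change below.

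Markers of the labelled muscle, bone and fat were present, as were those of cartilage. The joint set of epidermis and dermis markers, mostly keratins, was present too, and the labels name dermis but not epidermis. For fat, presence rests on 1 gene, the only one found of 4 symbols sought. By the authors' deposited table the 8 fast muscle genes summed to 94928 FPKM in TCDD and 156150 FPKM in DMSO. Of these, 3 of 8 were called lower in TCDD. They did not move alike: ckmb had 46477.5 FPKM in TCDD and 44943.8 FPKM in DMSO (q = 0.927) per the authors' deposited table. ckma also lay slightly higher in TCDD without a call, and the others had lower values. The 5 bone genes summed to 288 FPKM in TCDD and 1918 FPKM in DMSO, with 3 of 4 tested lower and bglap listed at 0 in TCDD. Of the slow muscle markers 2 of 3 tested fell, of the cartilage markers 2 of 3, and of the epidermis and dermis markers 2 of 5, while the fat marker fabp11a passed in neither direction. Leukocyte markers, of which 1 of 2 tested rose, summed to 154 FPKM in TCDD and 68.2 FPKM in DMSO. The untested SPI1 had 43.1 FPKM in TCDD and was listed at 0 in DMSO. The called ptprc and the untested mpx (1 of 2) and lcp1 also had higher values in TCDD. The tested mpx (2 of 2) had 32.2 FPKM in TCDD and 32.7 FPKM in DMSO, and the untested coro1a 15.4 FPKM in TCDD and 14.9 FPKM in DMSO. Liver markers summed to 102 FPKM in TCDD and 27.9 FPKM in DMSO, with only 1 of 5 tested and no call per the authors' deposited table. Spinal cord markers summed to 313 FPKM in TCDD and 352 FPKM in DMSO, also with no call, and the neuronal and myelin genes among them lay on opposite sides. The neuronal snap25a had 92.7 FPKM in TCDD and 47.0 FPKM in DMSO (q = 0.0788), and elavl3 had 45.8 FPKM in TCDD and 27.0 FPKM in DMSO (q = 0.155), per the authors' deposited table. The myelin gene mbpa had 171 FPKM in TCDD and 251 FPKM in DMSO (q = 0.305), and the untested plp1b had 4.17 FPKM in TCDD and 26.5 FPKM in DMSO, per the authors' deposited table. The liver gene serpina1 was listed at 0 in both groups and fga at 0 in DMSO. Lens and eye markers, none of them tested, summed to 6.85 FPKM in TCDD and 61.3 FPKM in DMSO, with crygn2 listed at 0 in TCDD. The part of these shifts in the chaperone values was not tested.

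The authors' test called 4 of the tested chaperone genes, which does not show that the others were unchanged. Among the 38 tested members, 2 were higher in TCDD and 2 were lower by the q-values of the authors' deposited table. These are 5.26% each way, where 10.7% of all 3286 tested genes were higher and 7.46% were lower (18.2% together). The J protein genes dnajb2 and dnaja2 rose, and ahsa1, an activator of the HSP90 ATPase, and the heat shock factor gene hsf2 fell. None of the 4 loci overlaps another gene of the table. Before adjustment, 10 tested members (26.3%) had p under 0.05 per the authors' deposited table, 6 higher and 4 lower. Of all tested genes 32.6% did, 18.7% higher and 13.9% lower.

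The size of the differences can be set beside that of all tested genes, here for tested members alone. Over the 38 tested members the log2 fold change (TCDD over DMSO) had a median of -0.10 and quartiles of -0.49 and 0.36. Over the 3262 tested genes above 0 in both groups the median was 0.05, with quartiles of -0.46 and 0.64. Differences over 2-fold were found for 3 tested members (7.89%), against 24.3% of those genes. The 2 sets were not matched for level: the median of the mean FPKM was 69.4 for tested members and 52.6 for all tested genes. The sign of the members' median depends on scaling: DMSO values sum to more than TCDD values, and setting the totals equal adds 0.25 to every log2 value, which brings the median to 0.14. Setting the median of all tested genes to 0 brings it to -0.15. With totals equal after the 10 most abundant genes are left out, it stays below 0, at -0.07.

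**Figure D1:**
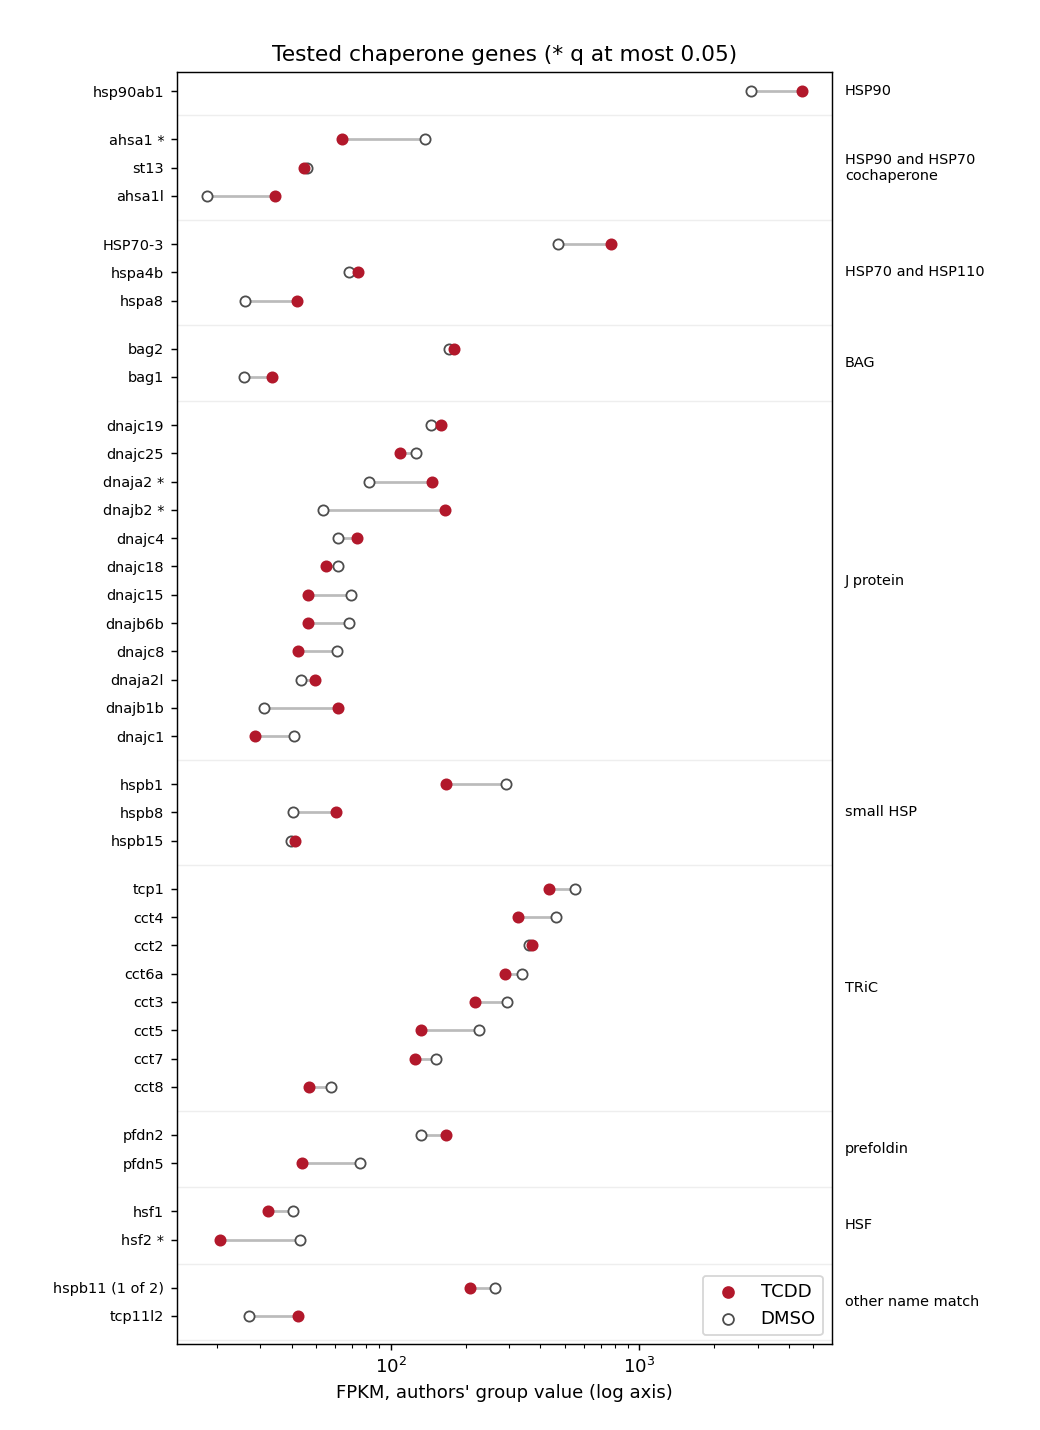
FPKM on a log axis for each of the 38 tested chaperone genes by class, with the TCDD group value as a filled red point and the DMSO group value as an open point; each point is the authors' value for 3 libraries and has no error bar. Genes with an asterisk passed q 0.05: dnajb2 and dnaja2 lie higher in TCDD, ahsa1 and hsf2 lower, and hsp90ab1 is the most abundant at 4510.2 FPKM in TCDD and 2802 FPKM in DMSO.

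The members included a cytosolic HSP90 gene of very high level and a minor one, and the rule left out hsp90aa1.1, given below. hsp90ab1, the constitutive HSP90, had 4510.2 FPKM in TCDD and 2802 FPKM in DMSO (log2 0.69, q = 0.131) per the authors' deposited table. The difference did not pass the authors' test. Its mean stood above 98.9% of tested genes, and it made up 44.6% of the summed FPKM of all 99 members in TCDD and 32.5% in DMSO. Without it the other members summed to 5612 FPKM in TCDD and 5811 FPKM in DMSO.

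hsp90aa1.2, an HSP90 gene on chromosome 24 (17515058 to 17518400), had 26.0 FPKM in TCDD and 12.1 FPKM in DMSO per the authors' deposited table, and was not tested. Its neighbour hsp90aa1.1, 1.6 kb away, is the form that folds muscle myosin in zebrafish. By the authors' deposited table it fell to 101 FPKM in TCDD, against 277 FPKM in DMSO (log2 -1.45, q = 0.00105). The adjacent pair thus lay on opposite sides of 0. How reads shared by such similar genes were assigned is not stated, so the split between HSP90 copies is uncertain.

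Among the cochaperones of HSP90 and HSP70, 1 of 3 tested fell and 0 rose. Of all tested genes 7.46% fell and 10.7% rose, and 3 genes are too few to compare with these shares. ahsa1 (AHA1), on chromosome 24 at 24012398 to 24015092, fell to 64.0 FPKM in TCDD, against 138 FPKM in DMSO, by the authors' deposited table (log2 -1.10, q = 0.0118). Its paralogue ahsa1l had 34.2 FPKM in TCDD and 18.2 FPKM in DMSO (log2 0.91, q = 0.124) per the authors' deposited table, which did not pass. The copies therefore had opposite signs, and their sum was 98.2 FPKM in TCDD and 156 FPKM in DMSO. st13, which couples HSP70 to HSP90, had 44.7 FPKM in TCDD and 46.3 FPKM in DMSO (q = 0.935) per the authors' deposited table.

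The other cochaperones were below the level of most tested genes, and none was tested. stip1 (HOP), the adaptor that joins HSP70 to HSP90, had 11.2 FPKM in TCDD and 20.7 FPKM in DMSO per the authors' deposited table. ptges3b, which encodes the p23 that stabilises closed HSP90, had 9.44 FPKM in TCDD and 21.5 FPKM in DMSO per the authors' deposited table. hspbp1, an exchange factor of HSP70, had 3.56 FPKM in TCDD and 9.97 FPKM in DMSO per the authors' deposited table. These 3 genes had lower values in TCDD, and the genes of the kinase-loading cochaperone differed among themselves. CDC37 (1 of 2) had 11.4 FPKM in TCDD and 6.34 FPKM in DMSO per the authors' deposited table, whereas CDC37 (2 of 2) was listed at 0 in TCDD and at 0.893 FPKM in DMSO. cdc37l1 had 10.2 FPKM in TCDD and 6.45 FPKM in DMSO per the authors' deposited table.

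All 3 tested HSP70 and HSP110 genes had positive log2 values. None passed, and 3 genes are too few to compare with the 18.2% called among all tested genes. The scalings used here shift all genes alike and by too little to change these signs, so they say nothing of stability. HSP70-3 (chromosome 16, 12031619 to 12034573), by far the most abundant, had 769 FPKM in TCDD and 469 FPKM in DMSO (log2 0.71, q = 0.0779) per the authors' deposited table. hspa8, the constitutive HSC70, had 42.1 FPKM in TCDD and 25.9 FPKM in DMSO (log2 0.70, q = 0.179) per the authors' deposited table. The HSP110-type hspa4b had 74.3 FPKM in TCDD and 68.3 FPKM in DMSO (log2 0.12, q = 0.803) per the authors' deposited table. HSP70-3 and hspa8 were thus 1.64 and 1.63 times as high in TCDD, with q-values short of the threshold.

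Untested HSP70 genes were scarce, and they showed the largest ratios of the family. hsp70.3 (chromosome 8, 486387 to 488307), heat-inducible in zebrafish, had 19.0 FPKM in TCDD and 1.01 FPKM in DMSO, a ratio of 18.8, per the authors' deposited table. HSP70-5 (chromosome 7, 10856297 to 10858217) had 30.3 FPKM in TCDD and 7.87 FPKM in DMSO, a ratio of 3.85, per the authors' deposited table. Both loci span 1920 bp, and neither ratio has a replicate check. The HSP110-type hspa4a had 16.2 FPKM in TCDD and 5.40 FPKM in DMSO per the authors' deposited table. The ER-located hspa13 had 14.2 FPKM in TCDD and 4.96 FPKM in DMSO per the authors' deposited table. hspa12b had 4.76 FPKM in TCDD and 2.60 FPKM in DMSO per the authors' deposited table. These untested genes of the class had higher values in TCDD, and the remaining ones had lower values. The split was not set beside that of all untested genes. hspa12a had 3.29 FPKM in TCDD and 8.41 FPKM in DMSO, and the ribosome-associated hspa14 had 15.8 FPKM in TCDD and 24.9 FPKM in DMSO, per the authors' deposited table. The 4 genes HSP70-3, HSP70-5, hsp70.3 and hspa8 are closely related and reads may be split between them. Together they summed to 861 FPKM in TCDD and 504 FPKM in DMSO, a ratio of 1.71.

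**Figure D2:**
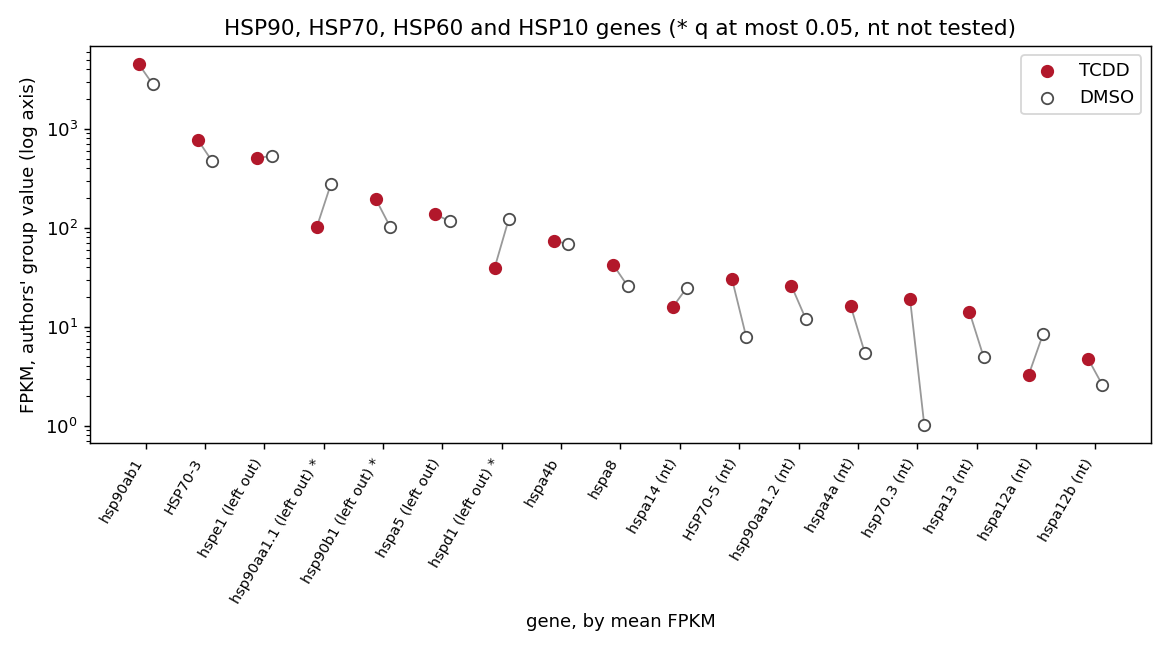
FPKM on a log axis of the HSP90, HSP70 and HSP110 genes, with the ER, mitochondrial and muscle chaperones that the name rule left out, ordered by mean FPKM; TCDD is the filled red point and DMSO the open point to its right, each the authors' group value. hsp70.3 shows the widest gap (19.0 FPKM in TCDD, 1.01 FPKM in DMSO) but was not tested, and of the genes shown only the left-out hsp90aa1.1, hsp90b1 and hspd1 passed q 0.05.

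BAG proteins, which release clients from HSP70, gave no call. Only 2 were tested, too few to compare with the 18.2% called among all tested genes. bag2, an inhibitor of the ubiquitin ligase CHIP, had 179 FPKM in TCDD and 172 FPKM in DMSO (q = 0.909) per the authors' deposited table. bag1 had 33.5 FPKM in TCDD and 25.9 FPKM in DMSO (q = 0.55) per the authors' deposited table. bag3, which works with hspb8 in muscle, had 15.1 FPKM in TCDD and 11.3 FPKM in DMSO per the authors' deposited table and was not tested. The untested bag4 and bag6 had slightly lower values in TCDD. They were 12.9 FPKM in TCDD and 17.2 FPKM in DMSO for bag4, and 20.1 FPKM in TCDD and 24.9 FPKM in DMSO for bag6, per the authors' deposited table.

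J proteins carried both calls that went up. They are the largest class here, with 46 genes, of which 12 were tested, 2 rose and 0 fell. Of all tested genes 10.7% rose and 7.46% fell, and counts this small cannot be read as a trait of the class. dnajb2 (chromosome 21, 21355877 to 21360734), a ubiquitin-binding J protein known from neurons and muscle of mammals, rose to 165 FPKM in TCDD, against 53.7 FPKM in DMSO, by the authors' deposited table (log2 1.62, 3.07-fold, q = 0.00427). It was the tested member that moved most. The neuronal markers snap25a and elavl3 had higher values in TCDD without a call, and the myelin genes mbpa and plp1b had lower ones. Of the 8 fast muscle markers, 3 were called lower in TCDD and 0 higher. The part of these tissues in the dnajb2 value was not tested. dnaja2 (chromosome 3, 32566775 to 32574043), a general cytosolic partner of HSC70, rose to 146 FPKM in TCDD, against 81.5 FPKM in DMSO, by the authors' deposited table (log2 0.85, 1.80-fold, q = 0.0408). Its relative dnaja2l had 49.8 FPKM in TCDD and 43.8 FPKM in DMSO (q = 0.718) per the authors' deposited table. The general J protein gene dnaja1, untested, had 10.5 FPKM in TCDD and 14.1 FPKM in DMSO per the authors' deposited table. Of these relatives dnaja2l did not pass, and dnaja1, without a test, could not be called.

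The heat-inducible dnajb1 copies lay higher in TCDD without a call. dnajb1b had 61.6 FPKM in TCDD and 30.9 FPKM in DMSO (log2 1.00, q = 0.0695) per the authors' deposited table. dnajb1a, untested, had 26.6 FPKM in TCDD and 19.0 FPKM in DMSO per the authors' deposited table. Their sum was 1.77 times as high in TCDD. The dnajb6 copies, whose product suppresses aggregation and sits at the Z-disc of muscle, had the other sign. dnajb6b had 46.5 FPKM in TCDD and 67.8 FPKM in DMSO (log2 -0.54, q = 0.4) per the authors' deposited table. The untested dnajb6a had 21.7 FPKM in TCDD and 28.3 FPKM in DMSO per the authors' deposited table.

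The remaining tested J proteins, most of them of mitochondria or the ER, spanned log2 values from -0.56 (dnajc15, of the mitochondrial import motor) to 0.25 (dnajc4). Their q-values ran from 0.306 for dnajc15 to 0.863 for dnajc19, likewise of the import motor, per the authors' deposited table. The splicing-linked dnajc8 had 42.6 FPKM in TCDD and 60.8 FPKM in DMSO (q = 0.384) per the authors' deposited table, at a locus that overlaps si:ch211-81a5.8. The 34 untested J proteins lay on both sides of 0, some were listed at 0 in at least 1 group, and none has a replicate check. The most abundant was dnajc5ab, a cysteine string protein of vesicles, with 29.7 FPKM in TCDD and 29.3 FPKM in DMSO per the authors' deposited table. The widest ratios were at low levels. dnajb4 had 4.80 FPKM in TCDD and 0.963 FPKM in DMSO per the authors' deposited table. dnajc17 had 7.60 FPKM in TCDD and 1.74 FPKM in DMSO per the authors' deposited table. DNAJC11 (2 of 2), on the other side, had 1.28 FPKM in TCDD and 4.45 FPKM in DMSO per the authors' deposited table.

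Small HSPs differed in sign and none of the 3 tested passed, with hspb11 left aside. So few genes cannot be compared with the 18.2% called among all tested genes. If hspb11 (1 of 2) belongs here, it had 208 FPKM in TCDD and 263 FPKM in DMSO (q = 0.479) per the authors' deposited table. hspb1 (HSP27), the most abundant of the 3, had 167 FPKM in TCDD and 290 FPKM in DMSO (log2 -0.80, q = 0.0682) per the authors' deposited table. hspb8, the partner of bag3, had 60.3 FPKM in TCDD and 40.4 FPKM in DMSO (log2 0.58, q = 0.241) per the authors' deposited table. hspb15 had 41.4 FPKM in TCDD and 39.6 FPKM in DMSO (log2 0.06, q = 0.921) per the authors' deposited table. cryaba, an alpha B-crystallin gene known from lens and muscle, was listed at 0 in both groups.

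All 8 TRiC subunits were tested and none passed in either direction, although 7 of 8 had lower values in TCDD. Of all tested genes 10.7% were called higher and 7.46% lower, and 8 genes are too few to compare with these shares. The share of all tested genes with lower values is not given, so the 7 of 8 cannot be read against it. Closest to a call was cct5 (chromosome 20, 13460321 to 13464331), with 132 FPKM in TCDD and 227 FPKM in DMSO (log2 -0.78, q = 0.055) per the authors' deposited table. cct4 had 324 FPKM in TCDD and 464 FPKM in DMSO (log2 -0.52, q = 0.219) per the authors' deposited table. cct3 had 218 FPKM in TCDD and 294 FPKM in DMSO (log2 -0.43, q = 0.302) per the authors' deposited table. The most abundant subunit gene, tcp1, was among those with smaller differences. It had 433 FPKM in TCDD and 549 FPKM in DMSO (log2 -0.34, q = 0.417) per the authors' deposited table. At the other end cct2 had 369 FPKM in TCDD and 361 FPKM in DMSO (log2 0.03, q = 0.941) per the authors' deposited table. The count of lower subunits is 6 of 8 when the totals are set equal, 8 of 8 when the median of all tested genes is set to 0, and 7 of 8 with totals equal after the 10 most abundant genes are left out. The subunits form 1 complex and are not replicates of each other.

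TRiC subunits stand in equal numbers in the ring, but their FPKM values did not match. They ranged from 47.0 FPKM (cct8) to 433 FPKM (tcp1) in TCDD and from 57.6 FPKM (cct8) to 549 FPKM (tcp1) in DMSO per the authors' deposited table. From the highest to the lowest, the order in TCDD was tcp1, cct2, cct4, cct6a, cct3, cct5, cct7 and cct8, and in DMSO it differed in that cct4 stood above cct2. Whether neighbours in this order differ beyond library spread cannot be said without values per library. The locus of cct8 overlaps aldocb and that of cct6a holds 3 small RNA genes, so their values are uncertain. The subunits had a median log2 value of -0.32, beside 0.05 for all tested genes, and summed to 1935 FPKM in TCDD and 2443 FPKM in DMSO.

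Of prefoldin, the hexamer that hands actin and tubulin to TRiC, 2 of the 5 genes taken in by name were tested and neither passed. With 2 genes no comparison can be made with the 18.2% called among all tested genes. pfdn2 had 167 FPKM in TCDD and 132 FPKM in DMSO (log2 0.34, q = 0.556) per the authors' deposited table. pfdn5 had 44.1 FPKM in TCDD and 75.2 FPKM in DMSO (log2 -0.77, q = 0.191) per the authors' deposited table. The subunits thus lay on both sides of 0. Of the untested genes, pfdn4 had 11.1 FPKM in TCDD and 23.9 FPKM in DMSO per the authors' deposited table. pfdn1 had 32.8 FPKM in TCDD and 35.0 FPKM in DMSO per the authors' deposited table. pfdn6, whose locus is shared with 8 other genes, had 21.3 FPKM in TCDD and 18.3 FPKM in DMSO per the authors' deposited table. The prefoldin gene vbp1, which the name rule did not take in, was not tested. It had 1.74 FPKM in TCDD and 7.69 FPKM in DMSO per the authors' deposited table.

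Both tested heat shock factor genes had lower values in TCDD, 1 of them with a call. That is too few genes to compare with the 7.46% of all tested genes called lower. hsf2 (chromosome 24, 9985579 to 9993795), which works beside hsf1 in development and proteostasis, fell to 20.6 FPKM in TCDD, against 43.3 FPKM in DMSO, by the authors' deposited table (log2 -1.07, q = 0.0363). hsf1 had 32.1 FPKM in TCDD and 40.4 FPKM in DMSO (log2 -0.33, q = 0.512) per the authors' deposited table. The difference between hsf2 and hsf1 was not tested. hsf4, known from the lens, was listed at 0 in both groups.

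**Figure D3:**
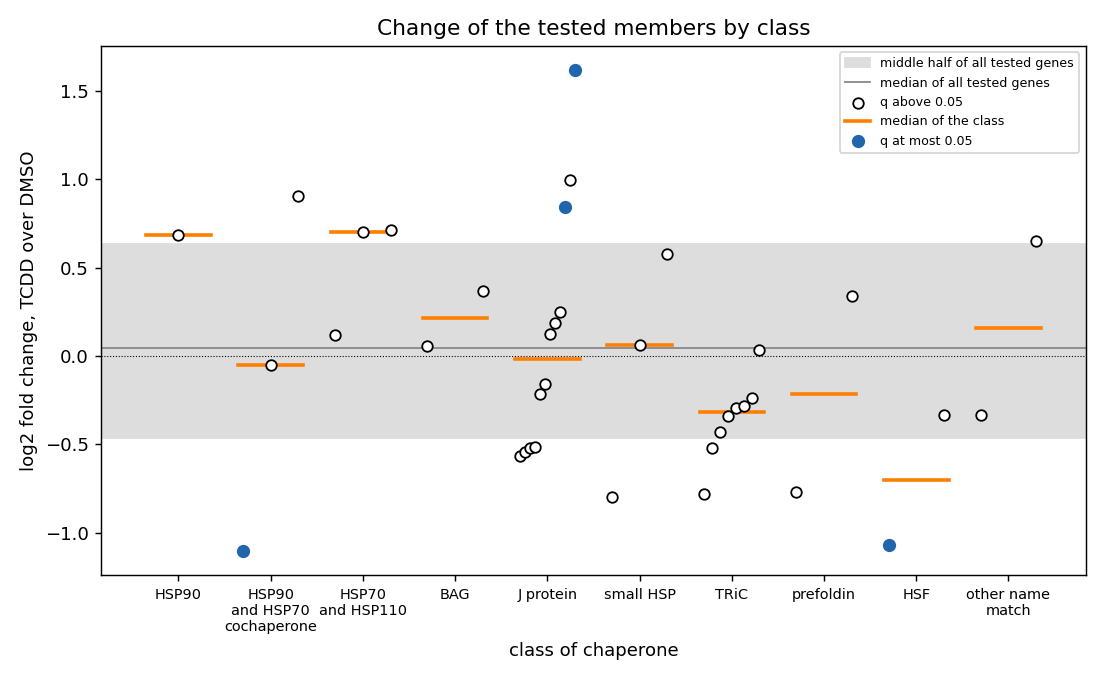
Log2 fold change of TCDD over DMSO for the 38 tested genes, 1 point per gene, by class of chaperone; blue points passed q 0.05, orange bars are class medians, and the grey band runs between the quartiles of all tested genes (-0.46 to 0.64). The only tested HSP90 member, hsp90ab1, and the 3 tested HSP70 and HSP110 genes lie above 0 without a call. The left-out hsp90aa1.1, called at -1.45, is not shown. Of the TRiC subunits 7 of 8 lie below 0 (6 with totals set equal), and J proteins lie on both sides, with dnajb2 highest at 1.62.

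The authors' test called almost no gene with a small change, which bounds what it can say of this family. Of all tested genes with an absolute log2 value from 0.5 to below 0.8, 0.161% were called, against 26.8% from 0.8 to below 1, and 59.5% from 1 to below 1.5. Among the tested members, 19 lay below 0.5, 13 from 0.5 to below 0.8, and 6 beyond. Differences of the size seen for hsp90ab1, HSP70-3 and the TRiC subunits were therefore hardly ever called in this table, and missing calls do not show that they are absent. The members next past the threshold were cct5 (q = 0.055), hspb1 (q = 0.0682), dnajb1b (q = 0.0695) and HSP70-3 (q = 0.0779) per the authors' deposited table.

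Untested members were set beside all untested genes over the same minimum mean, with no upper limit, so the sets were not matched for level. At or above the lowest mean of a tested gene (13.7 FPKM) and above 0 in both groups lay 20 untested members. Of these 3 (15%) were over 2-fold higher in TCDD, against 9.29% of all such genes, and 2 (10%) over 2-fold lower, against 7.83%. The higher ones were HSP70-5, hsp90aa1.2 and hspbap1, which is no chaperone, and the lower ones ptges3b and pfdn4. hspbap1 had 21.9 FPKM in TCDD and 5.68 FPKM in DMSO per the authors' deposited table. A further 32 lay below that mean, with differences over 2-fold in both directions, hsp70.3 and hspa4a among the higher ones. These were not set beside all untested genes of that level. Listed at 0 were 5 members in both groups, 2 in TCDD alone and 2 in DMSO alone.

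**Figure D4:**
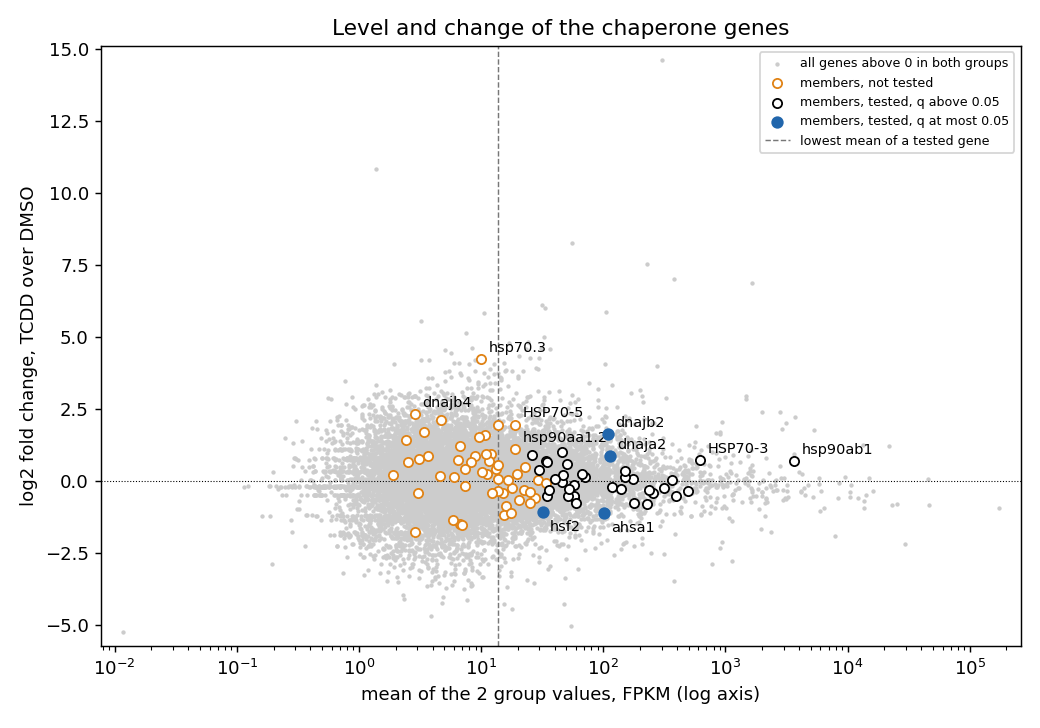
Log2 fold change of TCDD over DMSO against the mean of both group values (FPKM, log axis) for all genes above 0 in both groups (grey) and for the 90 chaperone genes among them. Untested members (orange) gather at low levels around the dashed line of 13.7 FPKM with hsp70.3 at 4.23, while the abundant hsp90ab1 and HSP70-3 stand at 0.69 and 0.71.

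Chaperones left out by the name rule gave 3 calls among 5 tested genes, 1 higher and 2 lower, where 10.7% of all tested genes were higher and 7.46% lower. The ER form of HSP90, hsp90b1, rose to 193 FPKM in TCDD, against 102 FPKM in DMSO, by the authors' deposited table (log2 0.92, q = 0.0207). The mitochondrial chaperonin gene hspd1 (HSP60) fell to 39.7 FPKM in TCDD, against 124 FPKM in DMSO, by the authors' deposited table (log2 -1.64, q = 0.00105). The third call was hsp90aa1.1, given above. hspe1, which encodes the lid of that chaperonin, had 505 FPKM in TCDD and 534 FPKM in DMSO (q = 0.887) per the authors' deposited table. The ER HSP70 gene hspa5 had 137 FPKM in TCDD and 116 FPKM in DMSO (q = 0.593) per the authors' deposited table. Whether hspd1 and its lid differ in response was not tested.

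Of a list of 37 cochaperone and folding-cofactor symbols, 29 genes were in the table, 15 were tested, 1 rose and 1 fell, with a median log2 value of -0.01. That is near the 18.2% called among all tested genes. The segregase gene vcp, whose product pulls ubiquitinated protein apart, rose to 247 FPKM in TCDD, against 91.1 FPKM in DMSO, by the authors' deposited table (log2 1.44, q = 0.00105). The collagen chaperone gene serpinh1b (HSP47) fell to 62.4 FPKM in TCDD, against 146 FPKM in DMSO, by the authors' deposited table (log2 -1.22, q = 0.00249), beside lower bone markers. The immunophilins that dock on HSP90 gave no call. fkbp4 had 23.9 FPKM in TCDD and 41.9 FPKM in DMSO (q = 0.146) per the authors' deposited table. ppid had 33.5 FPKM in TCDD and 52.9 FPKM in DMSO (q = 0.197) per the authors' deposited table. fkbp5 had 171 FPKM in TCDD and 121 FPKM in DMSO (q = 0.652) per the authors' deposited table.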

How the data were processed

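RNA sequencing was done on the Ion Torrent PGM, on polyA RNA of 3 TCDD and 3 DMSO libraries, per the labels' protocols. Bowtie2 2.2.6 and DESeq2 are listed, without a role, per the submitters' processing notes. The columns are those of Cuffdiff, per the file headers. Build, annotation and read assignment are not given in the sources used. The group values were read as FPKM from that layout: the authors deposited non-integer values, 1 per gene and group. The authors also deposited a test statistic (a score, not used further), p-values and q-values. With no values per library, the authors' test stood in for a new one, and depth is unknown.

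Log2 fold changes were recomputed from the group values without a pseudocount (Python 3.11.15, pandas 2.3.3, numpy 2.4.6, matplotlib 3.10.9). Genes at 0 in a group got no fold change. Counting and matching steps were tested on simulated data. Named genes are every called member, tested members by class, and untested members that are over 2-fold apart above the lowest tested mean or are abundant in their class; other low untested members and the neighbour pairs were picked after their values were seen. A planned marker gene is not reported here. The members and lists were chosen with earlier results of these data known. Alternatives were other q thresholds, 3 scalings, a pseudocount of 1, minimum means, and leaving out non-cytosolic or overlapping members. Promoter motifs were planned but not analysed here, and no sequences are shown.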

Additional observations from a re-analysis of the deposited data

How the results depend on the processing

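No paired analysis was possible because no library has a value of its own, which also precluded leaving out replicates. The members called moved with the q threshold. At q 0.01 there was 1 higher and 0 lower by the authors' deposited table, and at q 0.10 there were 4 and 4. The shares of all tested genes at those thresholds are not given, so these 2 pairs of counts cannot be read against them. The q-values could not be recomputed under another scaling. Equal totals, leaving out ER, mitochondrial and non-chaperone members, and leaving out overlapping loci (chosen after seeing the data) could not alter the counts of 2 higher and 2 lower, so they say nothing of stability. The tested members' median log2 value changed sign with equal totals (0.14), but not with the 10 most abundant genes left out of the totals (-0.073). It also changed sign over all members with a mean of at least 10 FPKM (0.029), and was -0.24 at a mean of at least 50 FPKM. The scalings shift every gene alike, so the members whose log2 value changed sign were those close to 0, none of them called: st13 (0.20), dnajc25 (0.032), dnajc18 (0.088) and cct6a (0.0076) with equal totals, and cct2 (-0.015) with the median of all tested genes at 0. Untested members over 2-fold apart numbered 12 at a mean of at least 5 FPKM, against 5 at the lowest mean of a tested gene. The count of 0 at 50 FPKM was fixed in advance, because the most abundant untested member, pfdn1, had a mean of 33.9 FPKM. The shares of all untested genes at these other means are not given, so the counts cannot be read against them.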

Other observations

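Chromosome 24 held 6 of the members, 4 of them tested, and 2 of the 4 called members, ahsa1 and hsf2; 23% of all tested genes there were called in the authors' deposited table. Of neighbours under 200 kb apart, hspa12b lies 2.9 kb from cct7, with log2 values of 0.87 and -0.28, bag3 lies 67.4 kb from dnajc12 (0.42 and -0.17), and hsf1 lies 146.3 kb from cct3 (-0.33 and -0.43). These pairs were picked out after the values were known and have no test.

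All members together took 0.913% of the summed FPKM in TCDD and 0.655% in DMSO, of which hsp90ab1 alone was 0.407% in TCDD and 0.213% in DMSO. These are shares of FPKM, not of reads.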
